A study of Mus musculus with 26 samples.

Results

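Open chromatin was compared between day 4 motor neuron progenitors and day 2 primitive ectodermal cells, both grown from mouse embryonic stem (ES) cells. The comparison rests on a pair of ATAC-seq peak lists. A day 4 peak that shared at least 1 bp with a day 2 peak was called kept, and one that shared none was called gained. A day 2 peak that shared no base with a day 4 peak was called lost. Peaks were narrow, with a median width of 100 bp in both lists. A peak that lay beside one of the other day without touching it therefore also counts as gained or lost. Peaks scoring over 100 times the median of their list were left out, 7 on day 4 and 11 on day 2. This gave 20434 gained and 27398 kept peaks on day 4, and 58581 lost peaks on day 2, where 27397 peaks were kept. Gained, kept and lost regions together numbered 106413, against 241604 peaks in the 4 deposited ATAC lists of the series.

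In ATAC-seq, the Tn5 transposase inserts sequencing adaptors where DNA is not wrapped tightly in nucleosomes, so read pile-ups mark promoters, enhancers and insulators in use or within reach of factors. Retinoic acid and Hedgehog signals pattern the neural tube along its axes and, in culture, direct neural cells towards ventral spinal progenitors. Ngn2 (Neurog2) is a proneural basic helix-loop-helix factor that starts neuronal differentiation in such progenitors and binds E-box motifs. H3K27ac, acetylated lysine 27 of histone H3, marks active enhancers and promoters, and p300 is a coactivator that can place it.

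The day 4 cells had received 1 uM retinoic acid (RA) and 0.25 uM SAG, an agonist of the Hedgehog pathway, from day 2, and no doxycycline. The day 2 cells had received neither. Both ATAC samples carry the line name iCre in one label field and Ainv15 in another. Each day has 1 ATAC library, so day, added signals and library cannot be told apart, and no difference below has a replicate check. Binding of Ngn2 was mapped on day 4 with a V5 tag antibody in cells induced with 3 ug/ml doxycycline from day 3, and no doxycycline was given to the cells of the ATAC library. The title of the Ngn2 library names an inducible Ngn2 line, while its growth label names iCre as those of the ATAC samples do, so its line is not settled, and every Ngn2 share below rests on this map of a tagged protein. H3K27ac was mapped on day 4 in 2 libraries labelled iCre, of which the second has a file name that mentions the HBG3 line. DNase-seq came from ES cells on day 0 labelled HBG3, a line that differs from that of the ATAC samples. Later ATAC, p300, Onecut1 and Isl1 maps came from days 5 and 6, after 5 uM DAPT, a Notch pathway inhibitor, had been added on day 4. A further factor map, titled as from the induced NIL line on day 4, with RA and doxycycline and no SAG in its label, is also labelled iCre. It is labelled Lhx3 while its file name mentions Isl1, and it is named by that label below.

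The progenitor label was checked in RNA of day 4 and day 0 cells labelled HBG3, since RNA of day 2 was not analysed here. All 7 progenitor markers stood between 5.15 and 83.4 FPKM (fragments scaled to transcript length and library size) on day 4 and were at least 2-fold higher than on day 0, on the scale of log2(FPKM + 1), where 19.3% of all genes tested were that much higher. All 6 ES cell markers were at least 2-fold lower, where 11.9% of genes were, and none was above 1.79 FPKM on day 4. Of markers of other cells, 0 of 9 mesoderm, endothelial and blood genes reached 1 FPKM on day 4, 5 of 9 endoderm and epithelial genes did (the highest at 3.19 FPKM) and 3 of 7 glial genes did (the highest at 6.65 FPKM). Their part in the peaks was not tested. Neurog2 itself stood at 19.7 FPKM on day 4 and 0.0483 FPKM on day 0. In a bulk library, more cells with a site open and a site more open in each cell cannot be told apart.

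The score deposited with each ATAC peak was, at all low values and to within 0.01, a whole multiple of one step of 0.349 on day 4 and 0.244 on day 2, a ratio of 1.43. The labels do not say what a step counts or how many reads each library held. The lowest score was 10 steps on day 4 and 12 steps on day 2, and the median score was 9.77 on day 4 and 6.58 on day 2. Scores were therefore used only as ranks within a list, from 0 to 100 with 100 the highest. The day 4 list was the shorter, with 47832 peaks against 85978 on day 2, and whether its length followed chromatin or depth was not tested.

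Between these lists, 42.7% of day 4 peaks were gained (95% interval 42.3 to 43.2, exact binomial) and 68.1% of day 2 peaks were lost (67.8 to 68.4). These intervals, like all below, cover counting error only, and peaks of 1 library are not replicates. The lists are of unequal length. With both cut to the 47832 highest scores, 52.9% of day 4 peaks were gained and 52.9% of day 2 peaks were lost. The limit on day 2 fell at a score of 6.09, which 2493 peaks shared, with 1305 of them inside and 1188 outside. The shortening turned 4861 day 4 peaks from kept to gained, and these had a median rank of 30.8. Under the stricter demand of a 50 bp overlap, the gained share was 54.1%, and with gaps of up to 500 bp counted as kept it was 31.9%.

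Gained and lost peaks were the weaker ones of their lists. Gained peaks had a median rank of 37.0 on day 4, against 60.2 for kept peaks, and lost peaks had a median rank of 38.2 on day 2, against 75.4 for kept peaks. In the highest decile of the day 4 list 18.0% of peaks were gained (859 of 4784), and the share was larger in each next decile up to 59.5% in the lowest (2847 of 4783). In the day 2 list the lost share was 25.1% in the highest decile (2160 of 8598) and 92.0% in the lowest (7910 of 8597). Of the 859 gained peaks in the highest decile, 4 overlapped a day 2 peak that had been left out for its extreme score. The rest of them and all 2160 lost peaks of the highest decile overlapped no deposited peak of the other day.

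**Figure D1:**
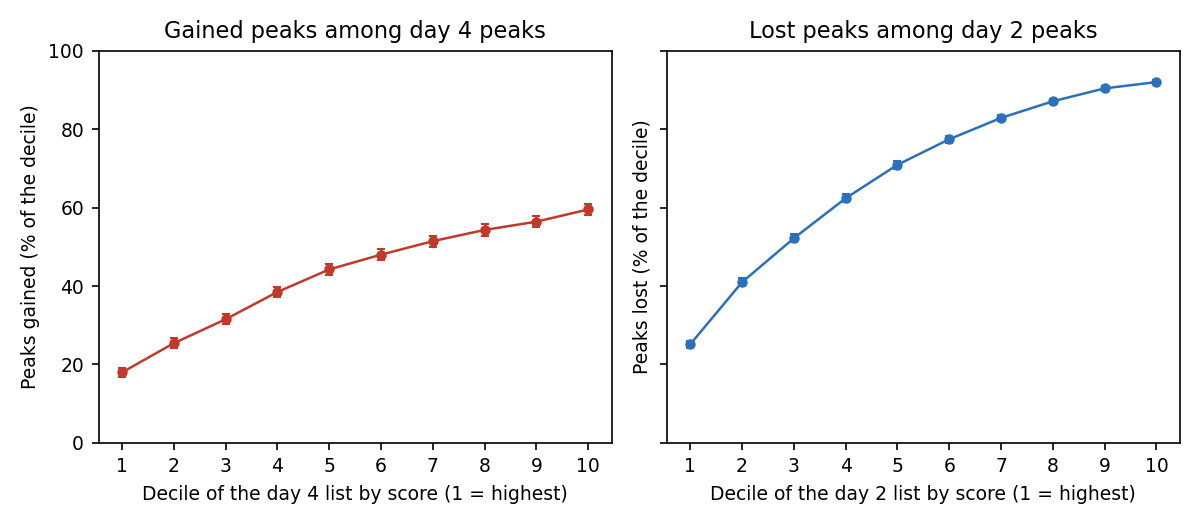
Share of day 4 peaks that were gained (left) and of day 2 peaks that were lost (right) in each decile of its list by score, from the highest (1) to the lowest (10). Points are percent of the decile, bars are exact 95% binomial intervals, and both shares were larger in each lower decile, with the gained share between 18.0% and 59.5% and the lost share between 25.1% and 92.0%.

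Kept peaks also moved in rank. Paired with the day 2 peak it overlapped, a kept peak had a day 4 rank that was lower than its day 2 rank by a median of 7.41 points (a difference of -7.41, quartiles -26.7 and 1.43). Of the 27398 pairs, 1356 (4.95%) stood more than 25 points higher on day 4 and 7307 (26.7%) more than 25 points lower. Ranks within lists of unequal length are not on 1 scale, so this shift shows no change in signal. Across the pairs, Spearman's rho of the ranks was 0.628, a description of 27398 regions that share 2 libraries.

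Gained peaks carried Ngn2 more often than kept or lost ones. An Ngn2 position lay within 100 bp of 1518 gained peaks (7.43%, 7.07 to 7.80), 605 kept peaks (2.21%, 2.04 to 2.39) and 153 lost peaks (0.261%, 0.221 to 0.306), where 4.44% of all day 4 and 0.854% of all day 2 peaks carried one. The order of gained above kept held in 10 of 10 score deciles of the day 4 list. In the highest decile 19.4% of gained peaks carried Ngn2 (167 of 859), against 4.38% of kept peaks (172 of 3925). In the lowest decile it was 3.48% of gained peaks (99 of 2847), against 0.362% of kept peaks (7 of 1936). In the day 2 list, lost peaks carried Ngn2 less often than kept peaks in 10 of 10 deciles, at 0.116 to 0.880% of lost peaks against 1.74 to 4.24% of kept peaks.

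Read from the Ngn2 side, each position was assigned first to the nearest day 4 peak within 100 bp. Of its 3184 positions, 1514 (47.6%, 45.8 to 49.3) lay at a gained peak and 602 (18.9%) at a kept peak. Another 103 (3.23%) lay within 100 bp of a day 2 peak only, whether lost or kept, and 965 (30.3%) at no peak of either list. Strong Ngn2 peaks lay at gained sites more often than weak ones. In the highest quintile of the Ngn2 list by its deposited occupancy score, 60.3% lay at a gained peak (384 of 637), 22.3% at a kept one, 1.88% at a day 2 peak only and 15.5% at none. In the lowest quintile, 36.3% lay at a gained peak (231 of 636), 18.6% at a kept one, 5.50% at a day 2 peak only and 39.6% at none.

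Ngn2 positions also sat close to the centres of the gained peaks. In the 50 bp just to the right of the peak centre there were 19.6 Ngn2 positions per 1000 gained peaks, against 5.40 per 1000 kept peaks and 0.563 per 1000 lost peaks. In the 50 bp bin that starts 500 bp to the right, the values were 0.832 for gained peaks, 0.401 for kept peaks and 0.171 for lost peaks. Gained peaks that carried Ngn2 had a median rank of 60.2 and those without it 37.0. Kept peaks that carried Ngn2 stood higher, at a median rank of 78.3, against 58.8 for kept peaks without it.

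**Figure D2:**
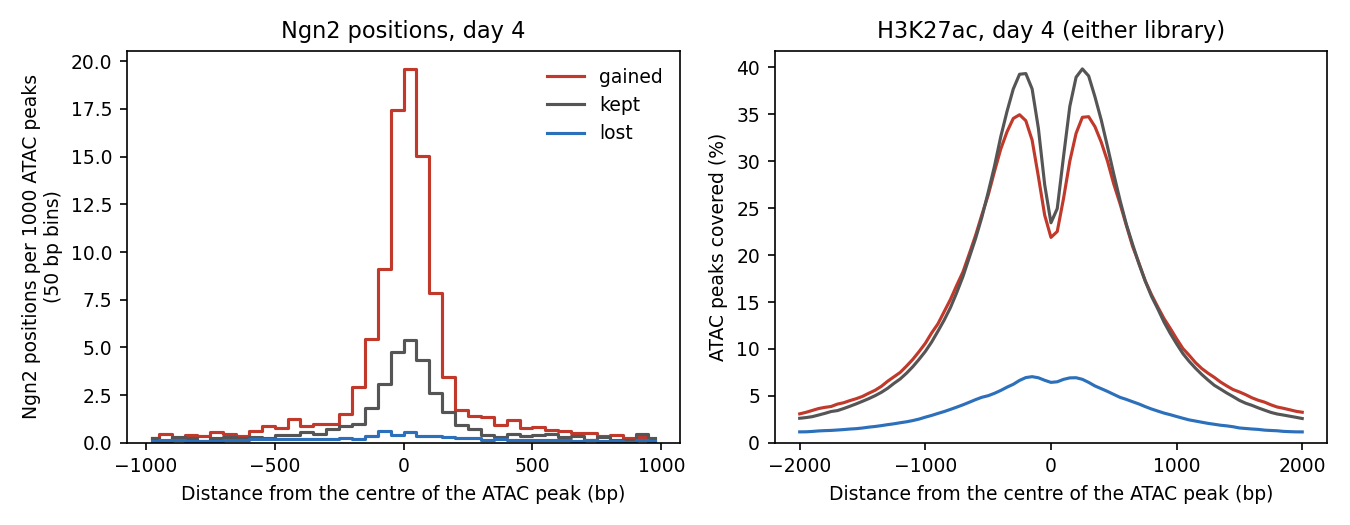
Ngn2 positions of day 4 per 1000 ATAC peaks in 50 bp bins (left) and the percent of ATAC peaks covered by H3K27ac of either day 4 library (right), by distance in bp from the centre of gained (red), kept (grey) and lost (blue) peaks. Ngn2 stood highest at the centre of gained peaks, at 19.6 per 1000, and H3K27ac was lower at the centre than 250 bp away at gained and kept peaks.

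H3K27ac of day 4 lay at a somewhat smaller share of gained than of kept peaks, and at few lost ones. A peak of either H3K27ac library overlapped 5762 gained peaks (28.2%, 27.6 to 28.8), 9123 kept peaks (33.3%, 32.7 to 33.9) and 4413 lost peaks (7.53%, 7.32 to 7.75), where 31.1% of all day 4 and 15.5% of all day 2 peaks had one. Both libraries had a peak at 18.8% of gained, 25.4% of kept and 5.65% of lost peaks, with 22.6% over all day 4 and 11.7% over all day 2 peaks. The first library alone covered 25.2% of gained, 29.3% of kept and 6.78% of lost peaks, with 27.6% over all day 4 and 13.8% over all day 2 peaks. The second covered 21.8% of gained, 29.3% of kept and 6.40% of lost peaks, with 26.1% over all day 4 and 13.5% over all day 2 peaks. Of the H3K27ac peaks themselves, 69.9% of the first library overlapped the second and 85.9% of the second overlapped the first.

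The order of gained and kept peaks for H3K27ac turned with the score. Gained peaks had the lower share over the whole list, but the higher share in 7 of 10 deciles and the lower in 3. In the second decile 48.6% of gained peaks had H3K27ac, against 54.7% of kept peaks, while in the lowest decile 8.68% of gained peaks had it, against 3.51% of kept peaks. Where both libraries were required, gained peaks had the higher share in 6 deciles and the lower in 4. In the day 2 list, lost peaks had the lower share in 10 of 10 deciles, at 2.38 to 16.7% of lost peaks against 19.4 to 37.1% of kept peaks. Acetylation flanked the sites: 250 bp to the right of the centre it covered 34.7% of gained, 39.8% of kept and 6.76% of lost peaks, and at the centre 21.9% of gained, 23.4% of kept and 6.44% of lost peaks.

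The order of gained peaks with and without Ngn2 for H3K27ac turned with the score and with the number of libraries required. Of gained peaks with Ngn2, 30.8% had H3K27ac in either library (28.4 to 33.2), against 28.0% of those without Ngn2 (27.4 to 28.6). With both libraries required it was 16.9% with Ngn2 (15.0 to 18.8), against 19.0% without (18.4 to 19.5). In each of the 5 highest score deciles H3K27ac of either library was less frequent with Ngn2, at 30.2 to 41.4% with Ngn2 against 37.4 to 51.1% without. In each of the 5 lowest it was more frequent, at 11.1 to 33.9% with Ngn2 against 8.59 to 33.0% without. In all, 467 gained peaks (2.29%) had both, against 0.945% of kept and 1.52% of all day 4 peaks. Another 13621 gained peaks (66.7%) had neither, against 66.0% of all day 4 peaks. H3K27ac was found again at many of its sites: of the gained peaks acetylated on day 4, 45.8% were covered by H3K27ac on day 5 and 47.5% on day 6, while of those not acetylated on day 4 it was 4.26% on day 5 and 12.9% on day 6. Over all day 4 peaks, 15.0% had H3K27ac on day 5 and 26.2% on day 6.

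**Figure D3:**
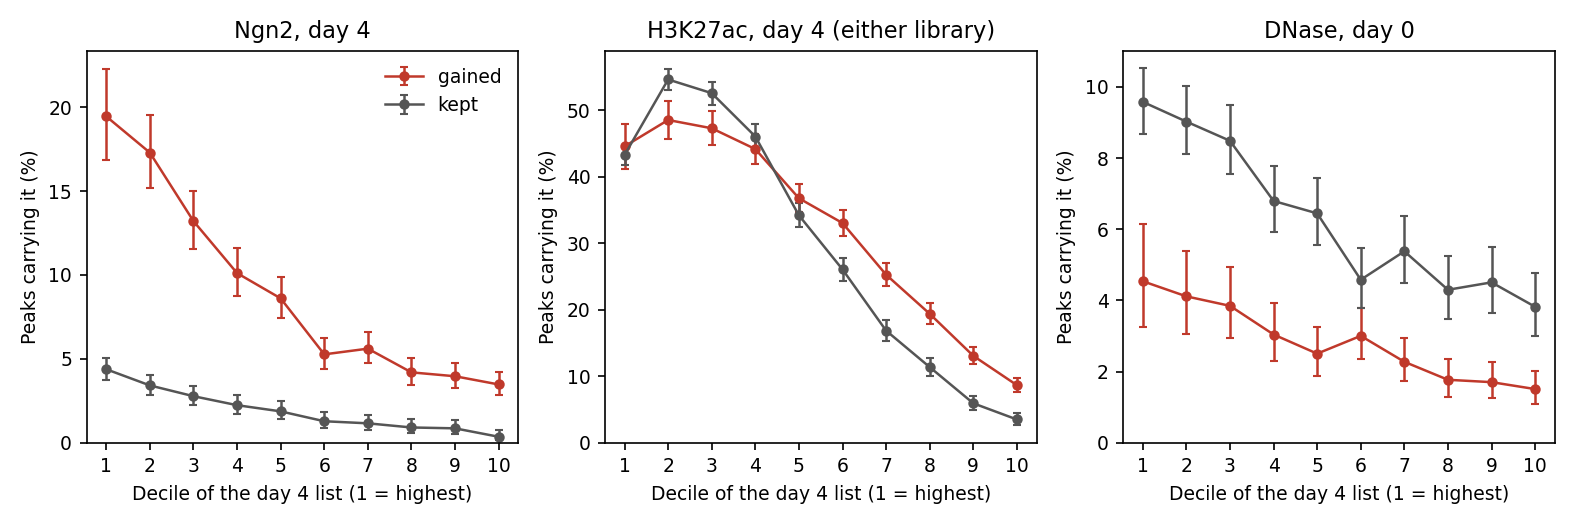
Percent of gained (red) and kept (grey) day 4 peaks that carried Ngn2 (left), H3K27ac in either day 4 library (middle) or a DNase position of day 0 (right), in each decile of the day 4 list by score, with exact 95% binomial intervals. Gained peaks were above kept peaks for Ngn2 and below them for DNase in 10 of 10 deciles, and above them for H3K27ac in 7 of 10.

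Few gained peaks lay at sites that were DNase accessible in ES cells. A DNase position lay within 100 bp of 516 gained peaks (2.53%, 2.31 to 2.75), 1849 kept peaks (6.75%, 6.45 to 7.05) and 1820 lost peaks (3.11%, 2.97 to 3.25), where 4.94% of all day 4 and 4.26% of all day 2 peaks had one. Gained peaks had the lower share against kept peaks in 10 of 10 deciles, at 1.51 to 4.54% of gained peaks against 3.82 to 9.58% of kept peaks. Lost peaks too had the lower share against kept peaks of the day 2 list in 10 of 10 deciles, at 1.59 to 5.83% of lost peaks against 3.06 to 8.29% of kept peaks. The share was lower at gained than at lost peaks in 8 of 9 settings. The exception was the required overlap of 50 bp, which calls some peaks that touch a day 2 peak gained, with a DNase position at 3.57% of gained and 3.47% of lost peaks.

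The DNase list was short, with 9955 positions, which limits every share read from it. Of these positions, assigned as for Ngn2, 505 (5.07%) lay at a gained peak and 1838 (18.5%) at a kept peak. Another 1697 (17.0%) lay at a day 2 peak only, whether lost or kept, and 5915 (59.4%) at none. Strong DNase positions lay at kept peaks more often: 537 of 1991 in the highest quintile by deposited intensity, against 275 of 1991 in the lowest. For positions at a day 2 peak only the order was the other way, with 286 of 1991 in the highest and 381 of 1991 in the lowest. The 516 gained peaks with a DNase position had H3K27ac on day 4 in 48.6% of cases, against 27.7% of the gained peaks without one. Among lost peaks those shares were 11.8% with DNase and 7.40% without. Ngn2 did not separate in this way, lying at 7.36% of gained peaks with DNase and 7.43% of those without.

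Many gained and lost peaks lay close to a peak of the other list without touching it. Of the 20434 gained peaks, 2420 (11.8%) had a day 2 peak within 100 bp, 2740 (13.4%) at 101 to 500 bp, 7505 (36.7%) at 501 to 10000 bp and 7769 (38.0%) farther away, with a median gap of 5565 bp. Of the 58581 lost peaks, 2490 (4.25%) had a day 4 peak within 100 bp and 35375 (60.4%) had none within 10000 bp, with a median gap of 16294 bp. Near neighbours differed from distant ones in what they carried and also in score. The median rank was 61.5 for gained peaks within 100 bp of a day 2 peak and 30.8 for those over 10000 bp away. For lost peaks it was 71.3 within 100 bp of a day 4 peak and 34.7 over 10000 bp away. The shares that follow were not taken within score deciles. Gained peaks within 100 bp of a day 2 peak carried Ngn2 in 3.76%, H3K27ac in 46.6% and DNase in 7.27% of cases. Those over 10000 bp away carried Ngn2 in 8.55%, H3K27ac in 17.9% and DNase in 1.25%. Of lost peaks within 100 bp of a day 4 peak, 43.9% had H3K27ac and 55.2% were listed again on day 5 or 6, while of those over 10000 bp away 0.500% had H3K27ac and 9.81% were listed again.

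**Figure D4:**
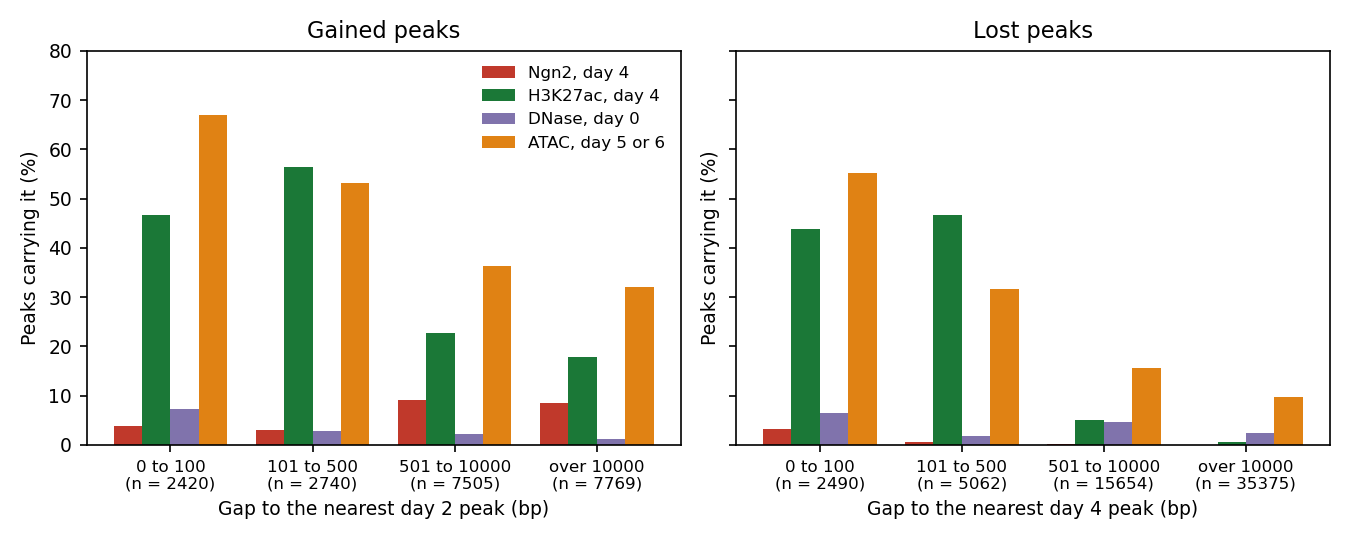
Percent of gained peaks (left) and lost peaks (right) that carried Ngn2 of day 4, H3K27ac of day 4 in either library, a DNase position of day 0 or an ATAC peak of day 5 or 6, by the gap in bp to the nearest peak of the other list. Gained peaks over 10000 bp from any day 2 peak carried H3K27ac in 17.9% of cases, and lost peaks that far from any day 4 peak in 0.500%.

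The later ATAC lists show how many of these sites were found again. An ATAC peak of day 5 or day 6 overlapped 8280 gained peaks (40.5%, 39.8 to 41.2), 23208 kept peaks (84.7%, 84.3 to 85.1) and 8877 lost peaks (15.2%, 14.9 to 15.4), where 65.8% of all day 4 and 37.2% of all day 2 peaks were found again. Day 5 listed 34.8% of gained, 79.0% of kept and 11.4% of lost peaks, with 60.1% over all day 4 and 32.8% over all day 2 peaks. Day 6 listed 24.8% of gained, 72.7% of kept and 10.3% of lost peaks, with 52.2% over all day 4 and 30.0% over all day 2 peaks. Gained peaks were found again less often than kept ones in 10 of 10 deciles, with 71.9% of gained peaks against 97.1% of kept peaks in the highest decile and 25.7% against 60.4% in the lowest. So 12154 gained peaks (59.5%) were listed on day 4 and on no other ATAC day, and 49704 lost peaks (84.8%) were listed on day 2 and on no other.

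Gained peaks with Ngn2 were listed on day 5 and not on day 6 more often than other gained peaks. Of the 1518 with Ngn2, 53.7% were listed on day 5 (51.1 to 56.2) and 19.6% on day 6 (17.6 to 21.7). Of the 18916 without it, 33.3% were listed on day 5 (32.6 to 33.9) and 25.2% on day 6 (24.6 to 25.8). Listed on day 5 but not on day 6 were 36.3% of those with Ngn2 (551 of 1518) and 14.1% of those without (2667 of 18916). That last difference had the same sign in 10 of 10 score deciles, at 31.8 to 42.2% with Ngn2 and 9.32 to 23.0% without. The day 6 share was lower with Ngn2 in 10 of 10 deciles, at 9.35 to 29.3% with Ngn2 and 15.8 to 49.9% without. The same was seen at kept peaks, where 30.9% of those with Ngn2 (187 of 605) and 11.6% of those without (3112 of 26793) were listed on day 5 and not on day 6.

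**Figure D5:**
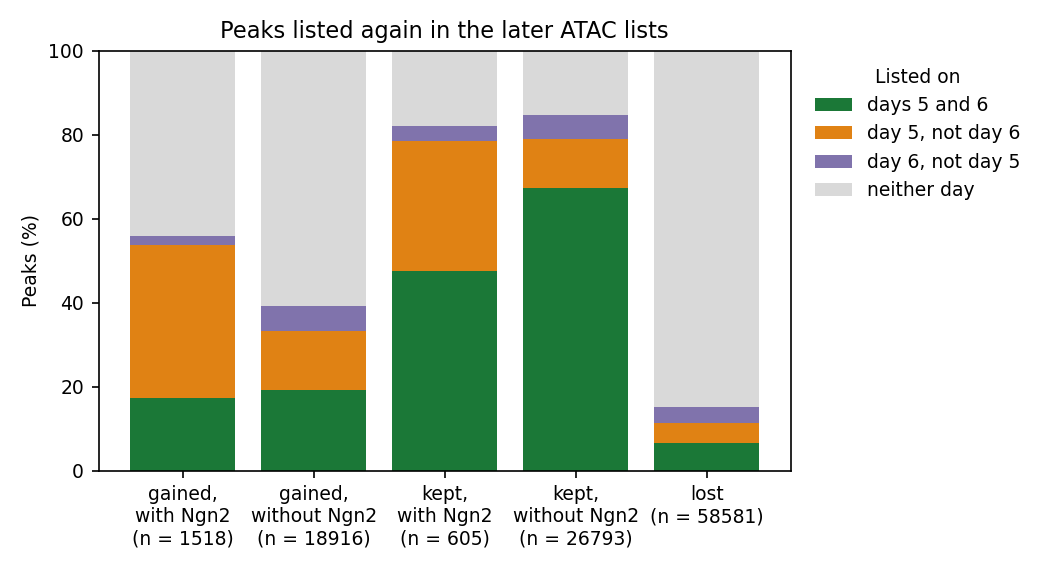
Percent of gained and kept peaks, with and without an Ngn2 position, and of lost peaks that were listed again in the ATAC lists of both days 5 and 6 (green), of day 5 but not day 6 (orange), of day 6 but not day 5 (purple) or of neither (grey). The orange section was 36.3% of gained peaks with Ngn2, 14.1% of gained peaks without, 30.9% of kept peaks with Ngn2 and 11.6% of kept peaks without.

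H3K27ac was then followed at the gained Ngn2 sites over 3 days. The first day 4 library covered 27.2% of them and the second 20.4%, against 25.5% on day 5 and 17.6% on day 6, with 1 library on each of those days. Either day 4 library had a peak at 30.8% of them, and both had one at 16.9%, less than on day 6. So day 6 was the lowest against each library alone and against either, but not where both were required. Of the gained peaks without Ngn2, the first day 4 library covered 25.1%, the second 21.9%, day 5 15.2% and day 6 23.0%. The lists of these days differ in length, from 24353 to 47275 peaks, so the courses show each list's overlap and not a change in level.

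Factor maps of the next days divided the classes further. Events of p300 on day 5 lay within 100 bp of 2586 gained peaks (12.7%, 12.2 to 13.1), 6672 kept peaks (24.4%, 23.8 to 24.9) and 1609 lost peaks (2.75%, 2.62 to 2.88), where 19.4% of all day 4 and 9.49% of all day 2 peaks had one. Within score deciles, gained peaks had the lower p300 share in 8 and the higher in 2. Of the gained peaks with p300, 12.8% carried Ngn2 and 52.2% H3K27ac of day 4, against 6.65% with Ngn2 and 24.7% with H3K27ac among those without p300. ATAC of day 5 listed 69.8% of the gained peaks with p300 and 29.7% of those without. The p300 list of day 6 was short, with 1337 events, and there the order of gained and kept peaks was the other way. Its events lay at 137 gained peaks (0.670%, 0.563 to 0.792), 117 kept peaks (0.427%, 0.353 to 0.512) and 69 lost peaks (0.118%). Over all day 4 peaks it was 0.531% and over all day 2 peaks 0.211%.

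Motor neuron factors lay at gained peaks more often than at kept ones. Onecut1, a homeodomain factor of the Onecut family, had day 5 events at 633 gained peaks (3.10%), 432 kept peaks (1.58%) and 284 lost peaks (0.485%), with 2.23% over all day 4 and 0.814% over all day 2 peaks. On day 6 it lay at 5.19% of gained, 4.59% of kept and 1.59% of lost peaks, with 4.85% over all day 4 and 2.53% over all day 2 peaks. Isl1, a LIM-homeodomain factor that specifies motor neurons, had day 5 events at 378 gained peaks (1.85%, 1.67 to 2.04), 77 kept peaks (0.281%) and 47 lost peaks (0.0802%), with 0.951% over all day 4 and 0.142% over all day 2 peaks. Its first day 5 replicate alone gave 322 gained and 62 kept peaks, and its second 141 gained and 33 kept. On day 6 Isl1 lay at 0.974% of gained, 0.186% of kept and 0.0495% of lost peaks, with 0.523% over all day 4 and 0.0919% over all day 2 peaks. The library labelled Lhx3 had events at 77 gained peaks (0.377%), 18 kept peaks (0.0657%) and 17 lost peaks (0.0290%), with 0.199% over all day 4 and 0.0419% over all day 2 peaks. So of 455 day 4 peaks with Isl1 on day 5, 378 were gained, where 42.7% of all day 4 peaks were gained. The shares of Onecut1, Isl1 and the library labelled Lhx3 were not taken within score deciles.

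Single regions show what these classes hold. Coordinates are those of the deposited mm9 lists, and genes are not named because no gene positions of that build were used here. The highest-scoring gained peaks with Ngn2 and H3K27ac in both libraries were chr10:96109103-96109202 (score 55.8, rank 98.9), chr3:49670291-49670390 (50.2, rank 98.4), chr2:94572249-94572348 (45.0, rank 97.4), chr15:13322938-13323037 (44.6, rank 97.4) and chr18:75594267-75594366 (44.3, rank 97.3). Of these 5, 4 had a day 2 peak within 76 bp. The first lay 12 bp from a day 2 peak of rank 73.4, carried an Ngn2 score of 348 and was listed on days 5 and 6 with p300. The region on chromosome 2, with an Ngn2 score of 58, lay 606 bp from the nearest day 2 peak.

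Because of those close neighbours, the same choice was made, after the values were seen, among gained peaks over 500 bp from any day 2 peak. After the chromosome 2 region it gave chr16:91193348-91193447 (score 39.8, Ngn2 score 76), whose nearest day 2 peak lay 25980 bp away, and chr10:129693480-129693579 (39.4, Ngn2 score 132). The next were chr18:84242913-84243012 (38.4, Ngn2 score 92), 14091 bp from a day 2 peak, and chr2:134682668-134682767 (36.3, Ngn2 score 82). The chromosome 16 site and the one on chromosome 18 were listed on day 5 and not on day 6, and the other two on neither day.

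The highest-scoring gained peaks with neither mark were shaped by the rule on extreme scores. The peaks chr2:98502776-98502875 (score 973.8), chr12:3109914-3110013 (830.1) and chrX:139917544-139917643 (677.3) each overlapped a day 2 peak left out for scoring over 100 times its list's median, so they count as gained only through that rule. In all, 4 of the 20434 gained peaks did so, and 0 of the 58581 lost peaks overlapped a left-out day 4 peak. The fourth, chr11:108873016-108873115 (326.1), lay 14 bp from one of the strongest day 2 peaks. The last, chr2:137531303-137531402 (83.7), lay 587 bp from the nearest day 2 peak and was listed on day 5 and not on day 6.

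The strongest lost peaks, taken apart by DNase, differed in score. With a DNase position, the 5 highest were chr2:109518214-109518313 (score 53.9, rank 99.6), chr10:129979026-129979125 (50.2, rank 99.5), chr17:38132671-38132770 (47.3, rank 99.4), chr15:61924472-61924571 (43.9, rank 99.2) and chr13:81025410-81025509 (42.7, rank 99.1). The first, second and last had a day 4 peak 50, 187 and 30 bp away. The chromosome 17 site lay 125925 bp from the nearest day 4 peak and the chromosome 15 site 13722 bp, and both had no H3K27ac on day 4 and were listed on neither day 5 nor 6. Without DNase, the 5 highest were chr17:3084392-3084491 (426.4), chr11:3046226-3046325 (226.5), chr11:3046964-3047063 (220.9), chr11:3045477-3045576 (207.7) and chr11:3085935-3086034 (135.8). Each of these outscored every lost peak with DNase, whose highest score was 53.9, a contrast of the top peaks only. Over the class, DNase was more frequent at high scores, at 5.83% of lost peaks in the highest decile and 1.59% in the lowest. The first of the 5 without DNase lay 79 bp from a day 4 peak of rank 99.98. All 5 lie in the first 3.2 Mb of their chromosome, as do 24 of all gained, 62 of all kept and 117 of all lost peaks. The highest kept peaks were chr9:35112992-35113091 (day 4 score 783.3), chr11:3023860-3023959 (663.0), chr9:3023490-3023589 (531.5), chr9:3002065-3002164 (491.1) and chr3:5860644-5860743 (489.3), of which the last carried Ngn2. Those on chromosome 11 and at 3023490 and 3002065 on chromosome 9 also lie in the first 3.2 Mb. Whether such regions are unique sequence was not tested, since no repeat annotation was used here.

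The windows densest in gained peaks held mostly acetylated sites. Of windows of 50 kb, chr11:96150001-96200000 and chr6:52100001-52150000 held the most, 10 gained peaks each. The first of these had no kept and 2 lost peaks, and the second 4 kept and 3 lost. In the chromosome 11 window the gained peaks lay between positions 96155973 and 96185781 with scores of 6.63 to 24.1 (ranks 27.5 to 85.8), 7 of 10 had H3K27ac in both libraries, 1 had Ngn2, and 9 were listed on day 5 and 5 on day 6. In the chromosome 6 window scores ran from 6.98 to 20.6 (ranks 30.8 to 81.2), 9 of 10 had H3K27ac in both libraries, none had Ngn2 or DNase, and 4 were listed on day 5 and 3 on day 6. Over all gained peaks 18.8% had H3K27ac in both libraries, 34.8% were listed on day 5 and 24.8% on day 6. Ngn2 lay at 7.43% of them, so 0 or 1 of 10 with Ngn2 is near the share of the class.

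The other dense gained windows were chr1:191950001-192000000 and chr16:91150001-91200000 with 9 gained peaks each and chr11:87950001-88000000 with 8, a count that 2 windows shared. H3K27ac of either library lay at 6, 7 and 7 of their gained peaks and Ngn2 at 1 each, where 28.2% of all gained peaks had H3K27ac and 7.43% Ngn2. The gained peaks of these windows had median ranks of 52.7, 58.8 and 51.3, also above the 37.0 of the class. The chromosome 16 window held the Ngn2 site at 91193348 named above, and its 9 gained peaks had scores of 4.19 to 39.8.

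Dense windows of lost peaks were mixed. The window chr5:15150001-15200000 held 12 lost peaks, and chr13:23500001-23550000 and chr8:19850001-19900000 held 11 each. The windows chr1:174350001-174400000 and chr13:105300001-105350000 held 10 each, a count that 6 windows shared. Kept peaks in these windows numbered 3, 9, 7, 0 and 1, in the order named. The windows with 9 and 7 kept peaks were thus dense in peaks of both classes. In both windows with 10, no lost peak had Ngn2, H3K27ac or DNase and none was listed on day 5 or 6. H3K27ac of either library lay at 4 of the 11 lost peaks of the first chromosome 13 window and at 0 of those on chromosomes 5 and 8. Over all lost peaks 7.53% had it, and over all day 2 peaks 15.5%. Day 5 listed 7 of the 11 lost peaks of the chromosome 8 window, 4 of 11 of that chromosome 13 window and 3 of 12 of the chromosome 5 window. It listed 11.4% of all lost and 32.8% of all day 2 peaks. Among the dense gained windows it listed 2 of 9 on chromosome 1, 3 of 9 on chromosome 16 and 4 of 10 on chromosome 6. In the chromosome 11 windows it listed 9 of 10 in the first and 6 of 8 in the second. Over all gained peaks 34.8% were listed on day 5, and over all day 4 peaks 60.1%.

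The gained share of day 4 peaks ran from 36.8% on chromosome 7 to 46.3% on chromosome 12, and the lost share of day 2 peaks from 62.1% on chromosome 11 to 72.4% on chromosome 14, over 20 chromosomes. A neighbour of the same class within 10 kb was found for 33.9% of gained, 44.6% of kept and 49.5% of lost peaks. The classes held 20434, 27398 and 58581 peaks, and a larger class has more such neighbours at the same spacing. The order of these shares therefore shows no difference in clustering.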

How the data were processed

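ATAC peak lists of days 2, 4, 5 and 6, and the maps named above, were used as deposited by the authors, 1 list per library, in mm9. Programs in the submitters' processing notes are MACS, STAR, HOMER 4.7.2 and Bowtie 0.12.7, in roles that the sources used here do not give. The ATAC signal per peak, the score of the H3K27ac, Ngn2 and DNase lists and the p-value column of the ATAC lists (highest 9.99e-05) are the authors' deposited values, used only within a list. Event lists give, per the file headers, a signal of precipitated reads. RNA is FPKM deposited by the authors, compared as log2(FPKM + 1) at 1 FPKM or more in either library, with no replicate and no test.

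Overlaps, gaps and exact (Clopper-Pearson) 95% intervals were computed in Python 3.11.15 with numpy 2.4.6, pandas 2.3.3 and scipy 1.17.1, and the interval code was tested on simulated data. H3K27ac and ATAC peaks count by an overlap of 1 bp, and Ngn2, DNase and event positions within 100 bp. Depth in reads is unknown. Control libraries of the immunoprecipitations (IgG, whole cell extract) stayed out. Regions named are the 5 highest-scoring gained peaks with Ngn2 and H3K27ac in both libraries, gained with neither, lost with and without DNase, and kept (by the mean of both ranks), and the 5 windows of 50 kb with most gained or lost peaks; exceptions are stated. The classes, marker lists and rules were chosen with earlier results of these data known.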

Additional observations from a re-analysis of the deposited data

How the results depend on the processing

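In 167 comparisons of a value with its alternative, 71 moved by less than the interval of the value (1 point for ranks) and 96 moved by more. The order of gained, kept and lost peaks was the same under every setting run for Ngn2, H3K27ac, later ATAC and the pooled factor events. These settings did not compare peaks within score deciles, where gained peaks had the higher H3K27ac share in 7 of 10. Under the 50 bp overlap the H3K27ac intervals of gained (30.2 to 31.4) and kept peaks (30.9 to 32.1) overlapped. For DNase gained peaks were below lost ones in 8 of 9 settings and above them under the 50 bp overlap. In the main setting the pooled events lay at 18.2% of gained and 28.1% of kept peaks, an order that only p300 of day 5 has by itself. Each other map of the pool, taken alone, lay at a larger share of gained than of kept peaks. With lists of equal length, 52.9% of day 4 peaks were gained and 52.9% of day 2 peaks lost. The median rank within the lists so cut was 37.0 for gained and 36.9 for lost peaks. Shares of gained, kept and lost peaks were then 6.69, 1.91 and 0.376% for Ngn2, 27.4, 35.3 and 11.3% for H3K27ac, 2.94, 7.19 and 4.20% for DNase, 46.3, 87.8 and 20.4% for ATAC of day 5 or 6, 18.5, 29.9 and 6.14% for p300, Onecut1, Isl1 or labelled Lhx3 events. With an overlap of 50 bp required, 54.1% of day 4 peaks were gained and 74.5% of day 2 peaks lost, with a median rank of 42.3 for gained and 41.5 for lost peaks. Shares of gained, kept and lost peaks were then 6.55, 1.95 and 0.493% for Ngn2, 30.8, 31.5 and 10.2% for H3K27ac, 3.57, 6.57 and 3.47% for DNase, 49.1, 85.5 and 20.7% for ATAC of day 5 or 6, 21.2, 27.1 and 6.75% for p300, Onecut1, Isl1 or labelled Lhx3 events. With gaps of up to 500 bp counted as kept, 31.9% of day 4 peaks were gained and 59.4% of day 2 peaks lost, with a median rank of 34.0 for gained and 34.7 for lost peaks. Shares of gained, kept and lost peaks were then 8.81, 2.39 and 0.0882% for Ngn2, 20.2, 36.2 and 1.87% for H3K27ac, 1.73, 6.45 and 3.06% for DNase, 34.1, 80.7 and 11.6% for ATAC of day 5 or 6, 15.1, 28.0 and 2.47% for p300, Onecut1, Isl1 or labelled Lhx3 events. In the higher-scoring part of each list, above its median, 31.5% of day 4 peaks were gained and 50.3% of day 2 peaks lost. Classes were still called against the whole list of the other day. Ranks taken anew within that part had a median of 38.3 for gained and 37.9 for lost peaks. Shares of gained, kept and lost peaks were then 12.5, 3.06 and 0.407% for Ngn2, 43.5, 46.6 and 11.8% for H3K27ac, 3.40, 8.23 and 4.28% for DNase, 52.2, 92.1 and 21.1% for ATAC of day 5 or 6, 25.3, 38.0 and 6.46% for p300, Onecut1, Isl1 or labelled Lhx3 events. With the other maps counted within 500 bp, shares of gained, kept and lost peaks were 9.62, 3.18 and 0.591% for Ngn2, 48.2, 51.9 and 10.7% for H3K27ac, 4.42, 8.94 and 5.16% for DNase, 53.2, 89.2 and 24.2% for ATAC of day 5 or 6, 28.1, 41.2 and 10.4% for p300, Onecut1, Isl1 or labelled Lhx3 events. With H3K27ac in both libraries required, the shares were 18.8, 25.4 and 5.65%. Leaving out either library gave 21.8 to 25.2% of gained, 29.3 to 29.3% of kept and 6.40 to 6.78% of lost peaks. Leaving out either Isl1 replicate gave 17.6 to 18.0% of gained peaks with an event of p300, Onecut1, Isl1 or the library labelled Lhx3. Alternatives chosen after seeing the data were to leave out peaks over 10 times the list median, where gained peaks had a median rank of 39.8, and to leave out unplaced sequences with the first 3.2 Mb of each chromosome. Genes near the peaks, planned as a further alternative, were not run because no gene positions of this build were used here. No paired analysis was possible because each day has 1 ATAC library, the classes share no replicate numbers and no result comes from a test. The causes of these shifts were not tested.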

Other observations

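Gained peaks with neither Ngn2 nor H3K27ac made up 66.7% of the class, and kept peaks with neither 65.4%, where 66.0% of all day 4 peaks had neither. At lost peaks it was 92.3%. Lost peaks with an Ngn2 position lay mostly close to a day 4 peak: 82 of the 153 (53.6%) were within 100 bp of one, against 4.12% of the other 58428. Of the 153, 47.1% had H3K27ac on day 4 (38.9 to 55.3), 30.7% had p300 on day 5 and 42.5% (65 of 153) were listed on neither day 5 nor 6. Of the other lost peaks, 7.43% had H3K27ac, 2.67% had p300 and 85.0% were listed on neither day. Within 100 bp of a day 4 peak the shares lay closer. There 57.3% of lost peaks with Ngn2 (45.9 to 68.2) and 43.4% of those without (41.4 to 45.4) had H3K27ac. For p300 it was 41.5% with Ngn2 and 25.8% without, and 35.4% with Ngn2 and 45.1% without were listed on neither day. At 501 to 10000 bp the shares lay far apart, on few peaks. There 34.6% with Ngn2 (9 of 26) and 4.92% without had H3K27ac, and 15.4% with Ngn2 and 1.48% without had p300. Over 10000 bp away, 0 of 19 with Ngn2 and 0.501% without had H3K27ac.

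The H3K27ac peaks at gained sites were weaker within their own lists than those at kept sites. In the first day 4 library they had a median rank of 73.2 at gained peaks, 84.5 at kept peaks of day 4 and 76.9 at lost peaks. In the second the medians were 71.1 at gained, 81.3 at kept and 73.4 at lost peaks. For p300 of day 5 the classes lay closer together, with median ranks of 58.5 at gained, 59.2 at kept and 54.3 at lost peaks. On chromosome Y and unplaced sequences, 32 of 166 day 4 peaks were gained (19.3%) and 161 of 295 day 2 peaks were lost (54.6%).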
